A study of Mus musculus with 23 samples.

Results

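The libraries described here are all 8 of dorsal hippocampus from wild-type (WT) mice, of 23 hippocampus libraries in the series. The labels for genotype, tissue and behaviour chose them, and no measured value entered the choice. In 5 libraries, called home cage 1 to 5, the mice were killed without leaving the home cage. In 3 libraries, called fear 1 to 3, they were killed 30 min after contextual fear conditioning, in which a mouse receives a foot shock in a chamber it has not met before; a single shock was given.

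Both groups had intact Acss2 on a C57BL6/J background, and age and sex are not given in the labels used here. Acss2 encodes the enzyme that makes acetyl-CoA from acetate in the cytosol and the nucleus, and the series set WT mice beside mice with a constitutive deletion of exons 3 to 7 of that gene (KO). Whole brains were snap-frozen and thawed, a dorsal slab of hippocampus 1 mm thick was cut in a brain matrix, and polyadenylated RNA from 300 ng of total RNA was sequenced with a kit that does not mark strand. No group met the chamber without the shock, so that handling, the new place and the shock cannot be told apart. The replicate numbers are the labels' own. Nothing in the labels says that each library is a separate animal, so the p-values measure the spread between these libraries, which may be technical.

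When a neuron is strongly excited, calcium entry and the ERK and cAMP pathways act on transcription factors that are already bound at a set of promoters, among them CREB and serum response factor. These immediate early genes are then transcribed within minutes and without new protein synthesis. One class encodes transcription factors of the FOS, JUN, EGR and NR4A families. Another class encodes synaptic proteins such as ARC, and phosphatases and Sprouty proteins that damp the ERK pathway again. In the hippocampus this response is known to follow exploration of a new place and fear conditioning, and its best known members are used as marks of recently active neurons.

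Counts per gene were compared with edgeR's quasi-likelihood test, fitted to all 17 dorsal libraries on group and batch, and the WT contrast is the log2 difference, fear minus home cage. The other 9 libraries, 5 KO home cage and 4 KO fear, help to estimate the batch terms and the spread. Library totals were 7790467 to 22388429 counts in home cage and 5362773 to 9109104 counts in fear. Home cage 1 and 2 and all 3 fear libraries were labelled batch B1, and home cage 3 to 5 were labelled B2. Levels are CPM, the counts of a gene over TMM-scaled library size, which are not corrected for gene length, so they are compared here between libraries and not between genes. Each log2 difference is given ± an approximate standard error.

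Of 14808 genes tested, 241 (1.63%) passed an adjusted p of 0.05, with 129 (0.871%) higher and 112 (0.756%) lower after fear. The median difference over all genes was -0.02, with 7027 genes above 0 and 7781 below 0. Before adjustment, 3083 genes (20.8%) were under 0.05, 1569 (10.6%) higher and 1514 (10.2%) lower, and DESeq2 called 938 (6.33%), 524 (3.54%) higher and 414 (2.8%) lower. The counts of lists below stand against these shares. All 3 fear libraries stood above all 5 home cage libraries for 108 of the 129 higher genes, and below them for 104 of the 112 lower genes. Over all genes tested, 1140 (7.7%) stood apart upward in this way and 1251 (8.45%) downward. The called genes were chosen from these same libraries, so their larger share is largely set by the choice and is no support for the calls. The number of genes called rested on single libraries. It was 6 (0.0403%) without home cage 2, 13 without fear 2 and 10 without fear 3, but 829 without home cage 1 and 793 without fear 1. With 1 KO library left out, which enters only through the shared terms, it ran from 32 without KO home cage 4 to 655 without KO home cage 1. Within batch B1 alone, with 2 home cage and 3 fear libraries, 5 genes (0.0365%) were called. All 241 genes kept their sign in every fit that left out 1 library; since they were chosen in the full fit, which shares nearly all its libraries with these, this is no sign of stability. Fear 1 differed least from home cage in most called genes: it was the lowest fear library for 104 of the 129 higher genes and the highest for 77 of the 112 lower genes. Its CA1 and its CA2 and CA3 marker sums, given below, were also the nearest to home cage of the 3. Whether its response was smaller or its tissue content differed was not tested.

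**Figure D1:**
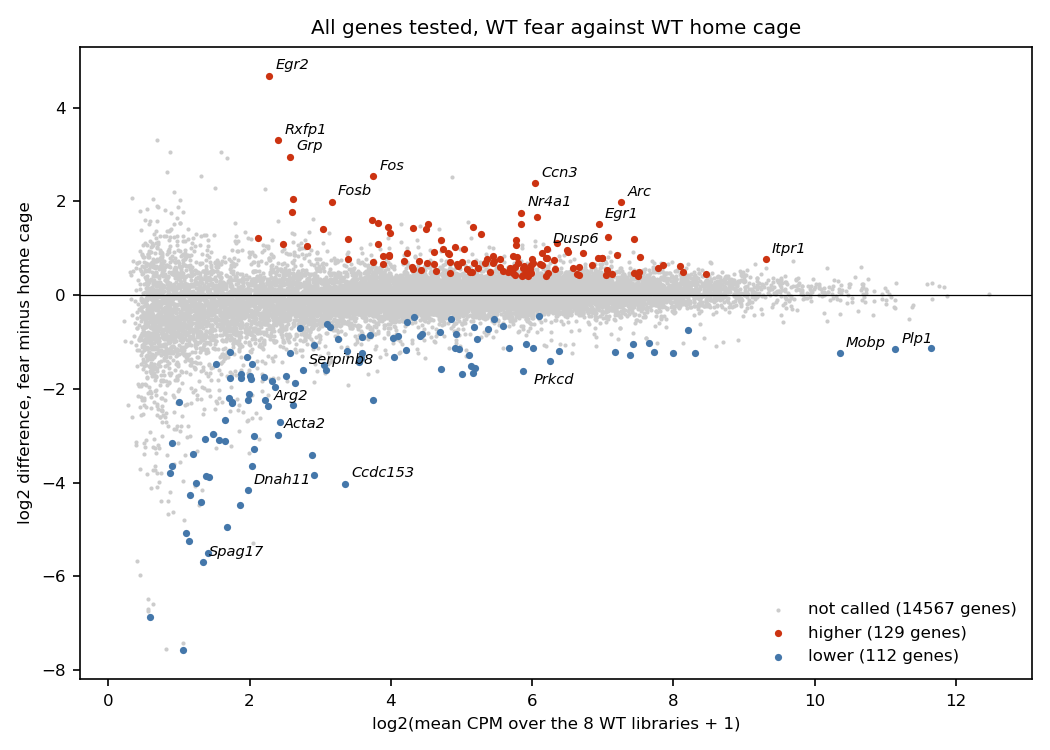
Each dot is 1 of 14808 genes; the horizontal axis is log2 of the mean CPM over the 8 WT libraries plus 1, and the vertical axis is the fitted log2 difference, fear minus home cage. The 129 called higher genes (red) include immediate early genes far from 0, and the 112 called lower genes (blue) include many of low level, where a fitted value for 0 to 3 fear reads depends on the prior count.

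**Figure D2:**
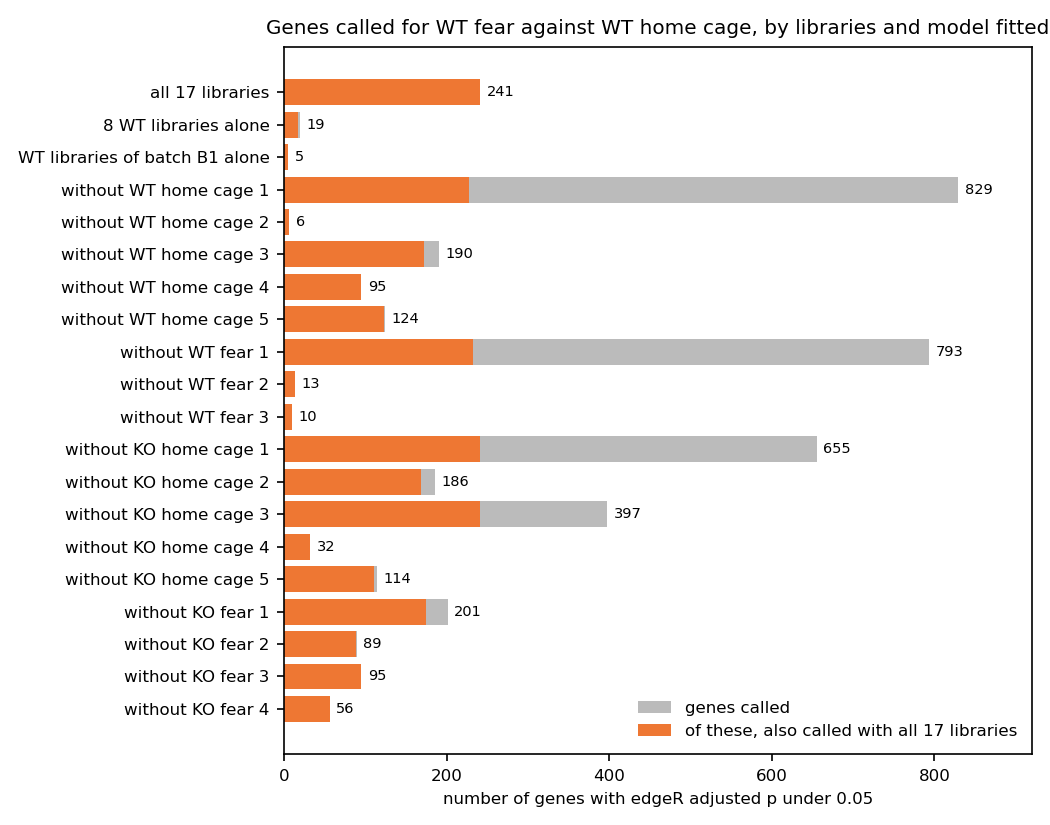
Each bar is the number of genes with an edgeR adjusted p under 0.05 for WT fear against WT home cage in 1 fit (horizontal axis), with the fits on the vertical axis; the orange stretch counts the genes also called with all 17 libraries. The count ran from 5 in batch B1 alone to 829 without home cage 1.

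The libraries also differed in the levels of markers of cell types and subfields, and these values stand beside every result below. In bulk tissue, fewer cells of a type and less RNA per cell cannot be told apart. The 10 tested markers of CA1 pyramidal cells, the output neurons of the hippocampus, summed to 663, 505, 456, 497 and 494 CPM in home cage 1 to 5 and 779, 1442 and 1371 CPM in fear 1 to 3. The 16 markers of CA2 and CA3 pyramidal cells summed to 1575, 1732, 2325, 2261 and 2160.0 CPM in home cage 1 to 5 and 1410.0, 1103 and 1205 CPM in fear 1 to 3. Fear 2 and 3 thus had the highest CA1 sums and the lowest CA2 and CA3 sums, while fear 1 lay between them and home cage 1 on both. The 14 markers of dentate granule cells summed to 1648, 1052, 1182, 1290.0 and 1262 CPM in home cage 1 to 5 and 1661, 1307 and 1749 CPM in fear 1 to 3, and the groups overlapped, as they did for 20 interneuron and 16 astrocyte markers. Markers of CA1, of CA2 and CA3 and of the dentate gyrus were thus detected in each library.

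The groups also stood apart in lists of cells other than neurons. The 18 markers of mature oligodendrocytes, the myelin-forming cells, summed to 7631, 15200.0, 14890.0, 8821 and 8470.0 CPM in home cage 1 to 5 and 5908, 4479 and 5340.0 CPM in fear 1 to 3. The 25 markers of ependymal cells and motile cilia, which line the ventricles, summed to 194, 286, 325, 204 and 190.5 CPM in home cage 1 to 5 and 110.5, 110.3 and 116 CPM in fear 1 to 3. In both lists all 3 fear libraries were below all 5 home cage libraries, and home cage 2 and 3 were the highest. Home cage 2 stood apart once more in 22 interferon response genes, at 430.3 CPM against 182.7 to 289.9 CPM in the other home cage libraries and 161.0 to 171.9 CPM in fear. In all 8 libraries Xist was at or under 0.251 CPM and the Y-linked Ddx3y was at 82.8 to 107.8 CPM.

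**Figure D3:**
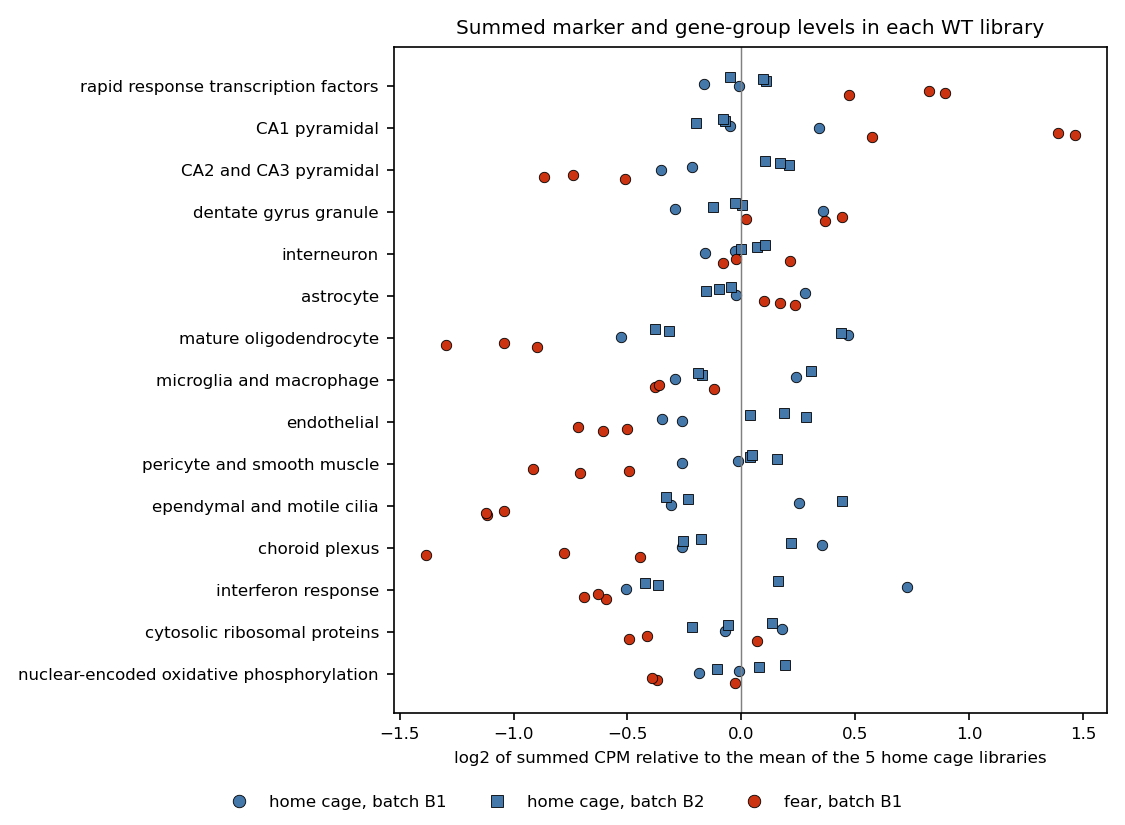
Each point is 1 WT library; the horizontal axis is log2 of the summed CPM of a gene list relative to the mean of the 5 home cage libraries, and the vertical axis names the lists. The rapid transcription factors and CA1 markers lay to the right in all 3 fear libraries, and CA2 and CA3, oligodendrocyte, vascular, ependymal and choroid plexus markers to the left.

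A majority of immediate early transcription factors rose after fear. Of 24 tested, 13 were called higher and 0 lower, and their median log2 difference was 0.86 against -0.02 over all genes; the higher calls over all genes are the 0.871% given above. The 13 were Egr1, Egr2, Egr3 and Egr4, Fos and Fosb, Junb, Nr4a1, Nr4a2 and Nr4a3, Ier2, Bhlhe40 and Srf. Their summed level, with the members that did not pass, was 869, 782, 944, 935 and 845 CPM in home cage 1 to 5 and 1214, 1628 and 1547 CPM in fear 1 to 3. Every fear library lay above every home cage library. The CA1 sums of fear 1 to 3, at 779, 1442 and 1371 CPM, were also above every home cage CA1 sum and ranked the fear libraries in the same order. The part of the subfield and cell type differences in these values was not tested. Without home cage 2 the called members were 3 (Egr2, Fos and Junb), without fear 2 they were 7 and without fear 3 they were 4. The list's median was between 0.76 and 0.96 in the 17 fits that left out 1 library. These fits share nearly all their libraries, so that the narrow range is no sign of stability.

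Promoter sequence of 5 immediate early genes that rose is shown because CREB and serum response factor are known to act on such genes through short elements near the start; the 5 were chosen with their matches in view. Each is the 150 bases before a RefSeq transcript start, 5′ to 3′ on the gene's strand, in GRCm38.p6, the assembly behind mm10. Capitals mark the conserved first 5 bases of the cyclic AMP response element, TGACG, or its reverse complement CGTCA, and the CArG box of serum response factor. The intervals are chr12:85473740-85473889 for Fos on the plus strand, chr10:67537719-67537868 for Egr2 (its promoter 3 of 5, plus strand) and chr8:84978749-84978898 for Junb on the minus strand. Nr4a1 is at chr15:101266696-101266845 and Homer1 at chr13:93303607-93303756, both on the plus strand. None of these intervals overlaps an exon in the GENCODE M21 annotation.
Fos: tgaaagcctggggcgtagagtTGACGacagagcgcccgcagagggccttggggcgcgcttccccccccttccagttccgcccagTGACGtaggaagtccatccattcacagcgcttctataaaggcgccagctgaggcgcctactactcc
Egr2: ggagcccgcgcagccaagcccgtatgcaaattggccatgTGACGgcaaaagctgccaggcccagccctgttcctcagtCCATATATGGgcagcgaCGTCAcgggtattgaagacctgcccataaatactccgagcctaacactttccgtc
Junb: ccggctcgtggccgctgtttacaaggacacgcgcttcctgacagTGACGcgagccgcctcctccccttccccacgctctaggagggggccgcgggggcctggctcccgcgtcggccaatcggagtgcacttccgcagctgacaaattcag
Nr4a1: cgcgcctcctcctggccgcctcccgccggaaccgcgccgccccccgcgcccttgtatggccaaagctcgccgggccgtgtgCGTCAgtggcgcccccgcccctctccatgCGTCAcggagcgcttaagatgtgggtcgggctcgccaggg
Homer1: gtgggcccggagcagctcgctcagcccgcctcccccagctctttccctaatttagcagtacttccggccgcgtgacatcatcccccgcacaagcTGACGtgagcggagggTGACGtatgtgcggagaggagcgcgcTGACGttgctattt
The Fos stretch holds 2 copies of the 5-base element, the nearer one starting 66 bases before the transcript start, and Junb holds 1. Egr2 holds a CArG box between 2 copies of the 5-base element. Nr4a1 shows 2 copies and Homer1 shows 3.

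The same search was run over all RefSeq promoters of genes tested, on both strands of the 250 bases before each start, for 11585 genes with 14820 promoters; a gene with several promoters counts once. TGACG or CGTCA was in 29.5% of those genes, in 39.1% of 92 genes called higher with a promoter in the table and in 18.6% of 86 called lower. Of 20 rapid transcription factor genes with a promoter, 75.0% held it, and of 31 rapid effector genes 54.8%. The full element TGACGTCA, which contains the shorter one, was in 2.99% of all genes, 5.43% of the higher and 5.81% of the lower genes. The CArG box was in 1.37% of all genes, 4.35% of the higher and 2.33% of the lower. These shares describe letters in a window and not bound sites.

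All 4 EGR zinc finger factors rose. Egr2 (chromosome 10, 67535475 to 67542188, plus strand; protein coding) measured 0.337, 0.753, 0.227, 0.138 and 0.306 CPM in home cage 1 to 5 and 4.90, 12.1 and 11.99 CPM in fear 1 to 3. It was nearly silent in the home cage and present in each fear library, a log2 difference of 4.68 ± 0.49, or 25.6-fold, with an edgeR adjusted p of 0.000427. Egr2 was called in all 8 fits that left out 1 WT library. Egr1, the member most used as a mark of plasticity in the hippocampus, measured 78.5, 78.8, 90.9, 65.8 and 63.97 CPM in home cage 1 to 5 and 147, 213 and 238 CPM in fear 1 to 3, 2.87-fold higher (log2 1.52 ± 0.23, adjusted p = 0.00802). Its lowest fear value was well above its highest home cage value. Egr1 was called in 6 of the 8 fits that left out 1 WT library. The edgeR adjusted p was 0.0504 without home cage 2, at most 0.0513 in those 8 fits, and 0.0668 in batch B1 alone. Egr4 ran at 11.7 to 18.3 CPM in home cage against 22.4 to 43.3 CPM in fear (log2 1.51 ± 0.26, adjusted p = 0.0186). Egr3, which was already well expressed at rest, ran at 83.1 to 120.1 CPM in home cage against 139 to 176 CPM in fear, a 1.74-fold difference (adjusted p = 0.0186).

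Of the AP-1 factors, dimers of FOS and JUN proteins, Fos, Fosb and Junb rose. Fos (chromosome 12, 85473890 to 85477273, plus strand) measured 4.04, 5.52, 7.71, 4.31 and 3.11 CPM in home cage 1 to 5 and 18.3, 33.3 and 23.4 CPM in fear 1 to 3, which was 5.83-fold higher (log2 2.54 ± 0.31, edgeR adjusted p = 0.00151). It was called in batch B1 alone too, with an adjusted p of 0.0404, and in all 8 fits that left out a WT library. Junb (chromosome 8, 84974484 to 84978718, minus strand) measured 32.8, 33.5, 46.2, 39.7 and 36.2 CPM in home cage 1 to 5 and 67.2, 104 and 91.03 CPM in fear 1 to 3 (log2 1.51 ± 0.20, adjusted p = 0.00204) and passed in the same 8 fits. Its exons overlap those of Prdx2 on the other strand, and reads within the shared bases cannot be told apart in these libraries. Fosb measured 3.48, 3.89, 5.33, 3.53 and 3.88 CPM in home cage 1 to 5 and 9.23, 21.9 and 12.5 CPM in fear 1 to 3 (log2 2.00 ± 0.30, adjusted p = 0.00766, 0.0664 without home cage 2). Fear 2 was well above fear 1 and 3 for Fosb, and home cage 3 was above the other home cage libraries, which were close together.

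The remaining AP-1 members did not pass. Jun measured 121, 77.4, 101, 116 and 105 CPM in home cage 1 to 5 and 129.5, 145 and 134 CPM in fear 1 to 3 (log2 0.46 ± 0.14, adjusted p = 0.0819), with every fear library above every home cage library. Jund, which is expressed constitutively, ran at 111 to 128 CPM in home cage against 99.1 to 116 CPM in fear with a log2 difference of -0.04 ± 0.13. Fosl2 ran at 19.6 to 26.5 CPM in home cage against 28.6 to 88.7 CPM in fear (log2 1.23 ± 0.31, adjusted p = 0.0521) and Maff was at or under 1.096 CPM in all 8 libraries. Atf3, a stress-induced partner of JUN, was at 1.43 to 2.64 CPM in home cage against 0.565 to 1.64 CPM in fear (log2 -1.11 ± 0.37, adjusted p = 0.110), and its groups overlapped.

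The NR4A orphan nuclear receptors all passed. Nr4a1 measured 29.5, 30.6, 36.5, 32.6 and 27.9 CPM in home cage 1 to 5 and 62.9, 112 and 119 CPM in fear 1 to 3, 3.39-fold higher (log2 1.76 ± 0.27, edgeR adjusted p = 0.00802). Nr4a2 measured 27.1, 24.3, 24.1, 24.4 and 19.04 CPM in home cage 1 to 5 and 38.97, 79.03 and 64.1 CPM in fear 1 to 3 (log2 1.31 ± 0.22, adjusted p = 0.0136). For both, fear 1 was between the home cage libraries and the other fear libraries. Nr4a3 measured 83.7, 86.2, 135, 123 and 99.9 CPM in home cage 1 to 5 and 142, 121 and 128 CPM in fear 1 to 3 (log2 0.64 ± 0.13, adjusted p = 0.0293). Its groups overlapped, with home cage 3 above fear 2 and 3, while both home cage libraries of the fear batch B1 were below all fear libraries. The adjusted p without home cage 2 was 0.0670 for Nr4a1, 0.143 for Nr4a2 and 0.174 for Nr4a3.

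Among the other early factors, Bhlhe40, a repressor that also acts on the circadian clock, ran at 49.6 to 62.8 CPM in home cage against 78.3 to 155 CPM in fear (log2 1.11 ± 0.20, adjusted p = 0.0233). Ier2 ran at 3.37 to 5.92 CPM in home cage against 7.32 to 8.99 CPM in fear (log2 1.04 ± 0.21, adjusted p = 0.0312), and Srf, which encodes serum response factor itself, at 48.3 to 59.8 CPM in home cage against 67.7 to 82.2 CPM in fear (log2 0.47 ± 0.11, adjusted p = 0.0454). Npas4, a factor induced selectively by neuronal calcium entry, measured 6.74, 6.78, 5.73, 2.48 and 1.79 CPM in home cage 1 to 5 and 10.2, 11.4 and 8.96 CPM in fear 1 to 3. All 3 fear libraries exceeded all 5 home cage libraries, but home cage 1, 2 and 3 were well above home cage 4 and 5, and the difference did not pass (log2 0.93 ± 0.38, adjusted p = 0.174). Btg2 (log2 0.50 ± 0.14), Tiparp (0.59 ± 0.18), Nfil3 (0.57 ± 0.17), Ier5 (0.45 ± 0.14) and Csrnp1 (0.43 ± 0.27) had values above 0 and did not pass.

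**Figure D4:**
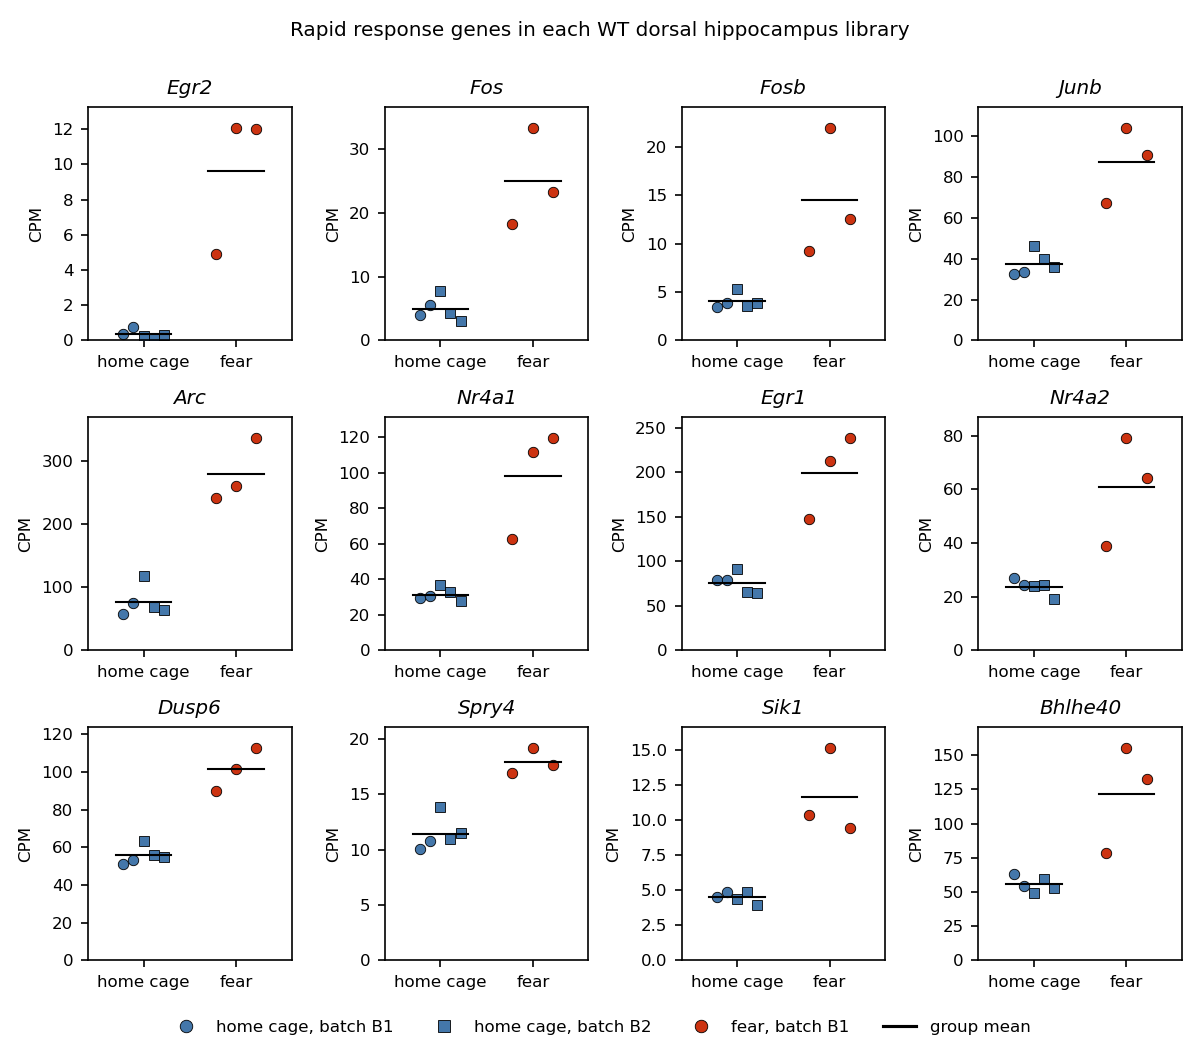
CPM (vertical axis, linear, from 0) of 12 immediate early genes in each WT library, with home cage in blue (circles batch B1, squares B2), fear in red, and a bar at each group mean. In all 12 panels the fear libraries sit above the home cage libraries, and fear 1 is the lowest fear library in each panel but that of Sik1. The 12 are a selection of called genes whose groups did not overlap, beside 7.7% of all genes tested that stood apart upward. Nr4a3, which was called with overlapping groups, and the genes that did not pass are not shown.

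Some effectors of the immediate early response rose. Of 40 tested effectors and feedback inhibitors, 7 were called higher and 0 lower; 12 were below 0, and the median log2 difference was 0.24. The 7 were Arc, Homer1, Dusp6, Spry4, Spred1, Sik1 and Per1. Without home cage 2 and without fear 2 there were 2 calls (Arc and Dusp6), and without fear 3 there were 3.

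Arc (chromosome 15, 74669083 to 74672570, minus strand) encodes a postsynaptic protein that removes AMPA receptors from the membrane. It measured 57.4, 75.2, 117, 68.4 and 63.9 CPM in home cage 1 to 5 and 241, 259.8 and 336 CPM in fear 1 to 3, 3.95-fold higher (log2 1.98 ± 0.27, edgeR adjusted p = 0.00211). Home cage 3 was above the other home cage libraries and still far below the lowest fear library. Arc passed in batch B1 alone (adjusted p = 0.0156) and in all 8 fits without a WT library. Homer1, whose short activity-induced form loosens the postsynaptic scaffold, measured 129, 107, 114, 114 and 107 CPM in home cage 1 to 5 and 151, 153 and 186 CPM in fear 1 to 3 (log2 0.53 ± 0.11, adjusted p = 0.0344); counts per gene do not separate the short form from the long ones.

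Several brakes of the ERK pathway were among the called genes. Dusp6, a phosphatase that inactivates ERK, measured 51.3, 53.5, 63.5, 56.1 and 55.1 CPM in home cage 1 to 5 and 90.00, 102 and 112 CPM in fear 1 to 3, 1.98-fold higher (log2 0.99 ± 0.13, edgeR adjusted p = 0.00204). Its 3 fear libraries were close together, and it passed in all 8 fits without a WT library. Spry4, a Sprouty inhibitor of receptor tyrosine kinase signalling, measured 10.1, 10.8, 13.9, 10.97 and 11.5 CPM in home cage 1 to 5 and 16.9, 19.2 and 17.7 CPM in fear 1 to 3 (log2 0.83 ± 0.14, adjusted p = 0.0171). The Sprouty-related Spred1 ran at 132 to 165 CPM in home cage against 195 to 239.5 CPM in fear (log2 0.47 ± 0.10, adjusted p = 0.0382). Other members of these families did not pass: Spry2 was at 51.6 to 57.6 CPM in home cage against 47.7 to 50.8 CPM in fear (log2 -0.06 ± 0.11), Spry1 at 7.19 to 11.8 CPM in home cage against 7.56 to 10.9 CPM in fear (log2 0.06 ± 0.17), Dusp4 at 27.2 to 36.8 CPM in home cage against 29.7 to 41.03 CPM in fear (log2 0.19 ± 0.19) and Dusp5 at 8.87 to 14.2 CPM in home cage against 7.34 to 12.3 CPM in fear (log2 0.20 ± 0.19). Spry1 and Dusp5 turned below 0 without the batch term.

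Dusp1, a phosphatase of the stress kinases p38 and JNK, measured 8.31, 10.5, 10.6, 9.91 and 7.35 CPM in home cage 1 to 5 and 13.7, 21.2 and 11.1 CPM in fear 1 to 3 and did not pass (log2 0.76 ± 0.24, edgeR adjusted p = 0.0910), although its groups did not overlap. Sik1, a salt-inducible kinase that damps CREB-dependent transcription by holding its coactivators in the cytosol, measured 4.49, 4.89, 4.37, 4.87 and 3.98 CPM in home cage 1 to 5 and 10.4, 15.1 and 9.47 CPM in fear 1 to 3, 2.66-fold higher (log2 1.41 ± 0.25, adjusted p = 0.0189). Gadd45b, a stress sensor linked to DNA demethylation in neurons, ran at 8.31 to 13.1 CPM in home cage against 9.60 to 15.9 CPM in fear and did not pass (log2 0.66 ± 0.19, adjusted p = 0.0710). Of the 10 effectors whose fear libraries all exceeded all home cage libraries, 7 passed. Ptgs2, which encodes the inducible cyclooxygenase, had a log2 difference of -0.76 ± 0.22 at an adjusted p of 0.0767.

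The secreted peptides and Kruppel-like factors gave 1 call, beside 1.63% of all genes. Of 26 secreted peptides and growth factors, 0 passed with edgeR, while before adjustment 2 higher and 3 lower ones were under 0.05, and 1 lower was a call of DESeq2. Bdnf, the neurotrophin of activity-dependent plasticity, ran at 88.7 to 106 CPM in home cage against 68.4 to 100.4 CPM in fear with a log2 difference of -0.19 ± 0.13 (adjusted p = 0.421), over all of its transcripts together. The members nearest to the threshold were Ntf3, which encodes neurotrophin 3, at 11.7 to 18.2 CPM in home cage against 5.48 to 11.7 CPM in fear (adjusted p = 0.0773), and Chgb, a granin of secretory vesicles, at 1092 to 1619.8 CPM in home cage against 525 to 1033 CPM in fear (adjusted p = 0.103). Of 14 Kruppel-like factors, Klf16 alone was called (27.9 to 45.4 CPM in home cage against 44.1 to 59.5 CPM in fear, log2 0.82 ± 0.15, adjusted p = 0.0233), and its groups overlapped.

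Of 17 clock genes, 3 were called higher and 0 lower, with a median of 0.29. Per1, a clock repressor that is also induced by cAMP and by glucocorticoids, measured 48.2, 34.1, 41.7, 42.9 and 39.00 CPM in home cage 1 to 5 and 48.2, 83.4 and 80.05 CPM in fear 1 to 3 (log2 0.84 ± 0.20, edgeR adjusted p = 0.0494); fear 1 and home cage 1 were the same to the third digit, and fear 2 and 3 were higher. Per2 measured 25.5, 17.7, 20.5, 18.7 and 17.5 CPM in home cage 1 to 5 and 30.3, 43.6 and 42.7 CPM in fear 1 to 3 (log2 0.90 ± 0.21, adjusted p = 0.0454). Tef, a PAR-domain factor driven by the clock, ran at 262 to 349.9 CPM in home cage against 393 to 431 CPM in fear (log2 0.46 ± 0.10, adjusted p = 0.0425). The labels used here do not give the hour of death, and its part was not tested. With home cage 2, fear 2 or fear 3 left out in turn, 0 clock genes passed.

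Of 20 genes induced by glucocorticoids, Per1 and Ddit4 were called. Ddit4, an inhibitor of mTORC1, ran at 40.5 to 65.8 CPM in home cage against 63.1 to 68.3 CPM in fear (log2 0.54 ± 0.11, edgeR adjusted p = 0.0330) with overlapping groups. Of 22 heat shock and unfolded protein genes, Dnajb1, a cochaperone of HSP70, was called (36.4 to 48.1 CPM in home cage against 47.6 to 58.5 CPM in fear, log2 0.52 ± 0.12, adjusted p = 0.0389). None of these passed without home cage 2, fear 2 or fear 3, and the same holds for Klf16.

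Receptors for monoamines, acetylcholine and neuropeptides held calls in both directions: 5 of 56 were called higher, 1 was called lower, and the median was 0.42. Htr1a, the inhibitory serotonin receptor 5-HT1A, measured 25.8, 17.4, 19.3, 22.6 and 24.1 CPM in home cage 1 to 5 and 42.7, 51.7 and 73.9 CPM in fear 1 to 3, 2.74-fold higher (log2 1.46 ± 0.23, edgeR adjusted p = 0.00932). Chrm4, the inhibitory M4 muscarinic receptor, measured 8.54, 5.52, 11.8, 11.9 and 11.2 CPM in home cage 1 to 5 and 11.7, 28.6 and 16.03 CPM in fear 1 to 3 (log2 1.53 ± 0.27, adjusted p = 0.0186). The groups were apart for Htr1a and overlapped for Chrm4, where fear 1 was below home cage 3 and 4. Adra2c, an alpha-2 adrenergic receptor, ran at 14.3 to 29.7 CPM in home cage against 34.7 to 36.5 CPM in fear (adjusted p = 0.0306) and Sstr1, a somatostatin receptor, at 7.78 to 11.6 CPM in home cage against 15.8 to 37.8 CPM in fear (adjusted p = 0.0330). Adrb1, the beta-1 adrenergic receptor through which noradrenaline raises cAMP, was the other called gene, at 9.91 to 13.3 CPM in home cage against 14.7 to 25.8 CPM in fear (log2 0.86 ± 0.20, adjusted p = 0.0457).

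The receptor that was called lower was Avpr1b, a vasopressin receptor enriched in CA2, which measured 2.47, 1.76, 3.12, 2.85 and 3.22 CPM in home cage 1 to 5 and 0.753, 0 and 0.253 CPM in fear 1 to 3 (edgeR adjusted p = 0.0389). Its lower level went with the lower CA2 and CA3 marker sum given above, and the higher receptor calls stood beside the higher CA1 marker sums. The part of the subfields was not tested for any of these receptors. Leaving out home cage 2, the list held 0 calls, and without fear 2 and without fear 3 it held 1; the median was 0.25 without fear 2. Crhr1, the main receptor of corticotropin-releasing hormone, had a log2 difference of 0.89 ± 0.24 and Cnr1, the cannabinoid receptor CB1, of 0.49 ± 0.14, and neither passed.

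Glutamate, GABA and glycine receptors and ion channels had mostly values above 0, and their calls stand beside 1.63% of all genes. Over all genes tested, 7027 were above 0 and 7781 below 0. All 13 NMDA and metabotropic glutamate receptor genes but Grin2c were above 0, with a median of 0.53 that was 0.30 without home cage 2 and 0.24 without fear 2. With edgeR 0 of them passed, 8 higher ones were under 0.05 before adjustment, against 10.6% of all genes, and 1 was a call of DESeq2. Grm5 ran at 264 to 333 CPM in home cage against 348 to 454 CPM in fear (log2 0.54 ± 0.17, adjusted p = 0.0899) and Grin2a at 381 to 605 CPM in home cage against 625 to 856 CPM in fear (log2 0.67 ± 0.22, adjusted p = 0.110). Of 29 sodium, calcium and HCN channel genes, 26 were above 0 and Cacna1i, a T-type calcium channel, was called (28.7 to 45.5 CPM in home cage against 59.5 to 90.8 CPM in fear, adjusted p = 0.0352). Of 17 GABA and glycine receptor genes, 13 were above 0 and Gabra2 was called (69.8 to 98.3 CPM in home cage against 116 to 139 CPM in fear, adjusted p = 0.0457). Of 71 potassium channel genes, 51 were above 0, and the 2 called were lower: Kcnj8, a vascular ATP-sensitive channel (2.29 to 3.89 CPM in home cage against 1.01 to 1.64 CPM in fear, adjusted p = 0.0449), and Kcnv1, a modifying subunit (65.1 to 82.4 CPM in home cage against 48.7 to 58.6 CPM in fear, adjusted p = 0.0494).

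Of 23 AMPA and kainate receptor genes and their auxiliary subunits, Cacng5 was called lower (17.4 to 27.6 CPM in home cage against 7.67 to 8.21 CPM in fear, adjusted p = 0.0382), and it is also on the CA2 and CA3 list. Of 49 kinase and calcium signalling genes, Itpr1, the calcium release channel of the endoplasmic reticulum, was called higher. It measured 604, 486, 458, 436 and 394 CPM in home cage 1 to 5 and 711, 1006 and 961 CPM in fear 1 to 3 (log2 0.76 ± 0.19, edgeR adjusted p = 0.0494), so that every fear library was above every home cage library. Prkcd, a protein kinase C that CA2 and CA3 share with the thalamus, was called lower at 44.8 to 96.8 CPM in home cage against 9.98 to 34.5 CPM in fear (log2 -1.63 ± 0.34, adjusted p = 0.0330). The calls for channels, Itpr1 and Prkcd were absent without home cage 2, fear 2 or fear 3. Over all genes the difference moved with exonic length: its median was -0.20 among the shortest of 5 equal bins of genes and 0.12 among the longest. The part of length and that of the subfields in the values of these lists were not tested.

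Of the CA1 markers several rose, and of the CA2 and CA3 markers several fell. Of 10 CA1 markers, 6 were called higher, all 10 were above 0 and the median was 1.18. Mpped1 measured 132, 124, 99.5, 112 and 114 CPM in home cage 1 to 5 and 194, 333 and 279 CPM in fear 1 to 3 (log2 1.20 ± 0.23, edgeR adjusted p = 0.0263), and Gpr161 measured 51.2, 30.99, 32.1, 33.2 and 37.3 CPM in home cage 1 to 5 and 59.7, 135 and 149 CPM in fear 1 to 3. Ccn3, a secreted matrix protein, measured 28.8, 29.1, 16.7, 20.1 and 16.3 CPM in home cage 1 to 5 and 32.8, 277 and 99.9 CPM in fear 1 to 3. Fear 2 and 3 were far above home cage for Gpr161 and Ccn3, and fear 1 was just above the highest home cage library for both.

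Of 16 CA2 and CA3 markers, 5 were called lower and the median was -0.82. Amigo2, an adhesion protein that defines CA2, measured 39.2, 37.9, 54.8, 47.5 and 62.4 CPM in home cage 1 to 5 and 19.02, 7.89 and 11.1 CPM in fear 1 to 3, a log2 difference of -1.65 ± 0.25 (edgeR adjusted p = 0.00721); it shares exonic bases with Pced1b on the other strand. Cpne4, a calcium-dependent membrane binding protein, measured 201, 229, 300.1, 288 and 265 CPM in home cage 1 to 5 and 152, 67.9 and 94.2 CPM in fear 1 to 3 (adjusted p = 0.0306). Ccdc3 ran at 25.9 to 58.96 CPM in home cage against 4.06 to 19.2 CPM in fear (adjusted p = 0.0348). All 3 fear libraries were below all 5 home cage libraries for 10 of the 16. Leaving out home cage 2, fear 2 or fear 3 left 0 CA1 calls, and left 0, 1 and 0 CA2 and CA3 calls. In those 3 fits the CA1 median was 1.04 or more and the CA2 and CA3 median -0.65 or less. Since the fits share nearly all their libraries, the kept medians are no sign of stability.

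Axon guidance and adhesion genes held 3 calls of 59: the ephrins Efna3 (24.1 to 37.2 CPM in home cage against 36.9 to 45.3 CPM in fear, adjusted p = 0.0382) and Efnb2 (10.1 to 14.3 CPM in home cage against 12.2 to 52.3 CPM in fear, adjusted p = 0.0467) were higher, and Amigo2, counted above, was lower. Efna3 and Efnb2 overlapped between the groups, and for Efnb2 fear 1 lay below home cage 1. None of the 3 passed with edgeR when home cage 2 was left out.

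Most of the oligodendrocyte genes fell. Of 18 markers, 11 were called lower, all 18 were below 0, and in all 18 the fear libraries were below the home cage libraries; the median was -1.20. Aspa, which hydrolyses N-acetylaspartate to acetate in these cells, measured 22.8, 50.8, 37.6, 26.9 and 25.2 CPM in home cage 1 to 5 and 13.9, 11.6 and 11.6 CPM in fear 1 to 3 (log2 -1.57 ± 0.33, edgeR adjusted p = 0.0330). Mog, a surface protein of myelin, measured 64.8, 142, 134, 70.7 and 72.1 CPM in home cage 1 to 5 and 44.1, 35.4 and 41.3 CPM in fear 1 to 3 (log2 -1.42 ± 0.30, adjusted p = 0.0339). Mobp, another myelin protein, measured 1195, 2246, 2212, 1305 and 1218 CPM in home cage 1 to 5 and 899.8, 598 and 774 CPM in fear 1 to 3 (adjusted p = 0.0359). Home cage 2 and 3 were high in each, and home cage 1, 4 and 5 were nearer to fear. The list's median without home cage 2 was -0.81 and 0 members passed; 0 passed without fear 2 and without fear 3 too. Of 14 dentate granule cell markers 0 passed with edgeR, 1 higher and 1 lower were under 0.05 before adjustment and 1 was a call of DESeq2. Interneuron markers gave 0 calls of 20 with edgeR (6 before adjustment, 1 with DESeq2) and astrocyte markers 0 of 16 (3 before adjustment, 1 with DESeq2), beside 20.8% of all genes before adjustment and 6.33% with DESeq2. Neocortex and subiculum markers gave 0 of 17 (4 before adjustment, 2 with DESeq2), and the 2 blood genes gave 0 by every count. Of 12 precursor markers, 0 passed with edgeR, 3 lower ones were under 0.05 before adjustment and 2 were calls of DESeq2.

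Some motile cilia genes fell. Of 25 ependymal and cilia markers, 9 were called lower, all 25 were below 0 and the median was -2.04. Dnah11, a dynein heavy chain of the ciliary axoneme, measured 3.93, 6.27, 7.14, 2.75 and 2.55 CPM in home cage 1 to 5 and 0.188, 0.219 and 0.379 CPM in fear 1 to 3 (log2 -4.17 ± 0.72, edgeR adjusted p = 0.0186). Ccdc153 measured 8.42, 12.7, 21.1, 14.7 and 14.9 CPM in home cage 1 to 5 and 0.565, 0.548 and 1.14 CPM in fear 1 to 3 and Ak7, a ciliary adenylate kinase, measured 5.95, 11.3, 15.8, 9.87 and 7.35 CPM in home cage 1 to 5 and 1.13, 0.438 and 0.631 CPM in fear 1 to 3. These 3 were called within batch B1 alone, with adjusted p-values of 0.0372 for Dnah11, 0.0167 for Ccdc153 and 0.0404 for Ak7. Foxj1, the master regulator of motile cilia, ran at 9.55 to 29.6 CPM in home cage against 2.40 to 5.08 CPM in fear (adjusted p = 0.0467). For Spag17, a protein of the central pair, the fear libraries held 1 read in all against 170 in home cage, a ratio of 50.1 (exact 95% interval 8.87 to 1989, counting error only). For Ccdc33 it was 3 reads against 156, a ratio of 15.3 (5.15 to 75.1). Without home cage 2, fear 2 or fear 3, 0 of the 25 passed, with medians of -1.84 to -2.02. Dnah11, Spag17 and Ccdc33 have exonic overlaps with genes on the other strand.

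A few vascular and choroid genes fell. Of 14 pericyte and smooth muscle markers, Acta2, Mylk and Kcnj8 were called lower and all 14 were below 0. Acta2, the actin of arterial smooth muscle, measured 4.27, 6.65, 9.07, 6.75 and 5.56 CPM in home cage 1 to 5 and 0.565, 0.877 and 0.505 CPM in fear 1 to 3, 7.87-fold lower (edgeR adjusted p = 0.0219); Mylk, the myosin light chain kinase, ran at 26.5 to 57.2 CPM in home cage against 11.6 to 19.4 CPM in fear. All 16 endothelial markers were below 0 with 0 calls by edgeR, 5 at an unadjusted p under 0.05 and 1 by DESeq2. Of 16 choroid plexus markers, Sostdc1, a secreted BMP and Wnt antagonist, was called (4.83 to 9.75 CPM in home cage against 0.987 to 3.20 CPM in fear, adjusted p = 0.0306). Aebp1 was the 1 call among 16 fibroblast markers, and Prkcd, described above, the 1 call among 15 markers of thalamus and habenula. Of 15 microglia and macrophage markers 14 were below 0 and 0 passed with edgeR or DESeq2, with 1 at an unadjusted p under 0.05. The vascular, choroid and fibroblast calls were absent without home cage 2, fear 2 or fear 3. Whether the slabs differed in their edges, vessels and ventricular lining cannot be told apart from less RNA per cell of these types.

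Of 22 interferon response genes, 21 were below 0 and Irf7, the regulator of type I interferon, was called. Irf7 measured 1.12, 4.64, 1.47, 1.01 and 1.28 CPM in home cage 1 to 5 and 0.565, 0.110 and 0.126 CPM in fear 1 to 3 (log2 -3.39 ± 0.77, edgeR adjusted p = 0.0423). Home cage 2 was far above the other 7 libraries, and without it the adjusted p was 0.328 and the median of the list went from -1.04 to -0.43.

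Some of the called genes with the smallest p-values belong to none of the lists. Serpinb8, a serine protease inhibitor, measured 6.07, 7.40, 8.96, 7.39 and 9.44 CPM in home cage 1 to 5 and 2.07, 1.97 and 2.65 CPM in fear 1 to 3, 3.05-fold lower (log2 -1.61 ± 0.21, edgeR adjusted p = 0.00204). It was the only lower gene called in all 8 fits that left out a WT library. Srl, which encodes the calcium-binding protein sarcalumenin, measured 33.9, 33.5, 36.5, 36.9 and 36.5 CPM in home cage 1 to 5 and 21.5, 14.6 and 21.7 CPM in fear 1 to 3 (log2 -0.83 ± 0.13, adjusted p = 0.00932). Arg2, the mitochondrial arginase, measured 4.83, 4.52, 5.33, 5.32 and 7.15 CPM in home cage 1 to 5 and 1.13, 0.767 and 1.14 CPM in fear 1 to 3 (log2 -2.37 ± 0.39, adjusted p = 0.0136); it overlaps Vti1b on the other strand.

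Maoa, the enzyme that oxidises serotonin and noradrenaline, ran at 50.03 to 62.7 CPM in home cage against 31.6 to 42.9 CPM in fear (log2 -0.65 ± 0.12, edgeR adjusted p = 0.0263). Scgn, a calcium-binding protein of some interneurons, ran at 3.97 to 7.78 CPM in home cage against 1.77 to 3.20 CPM in fear (adjusted p = 0.0306). Calhm5, of a family of calcium homeostasis modulators, ran at 12.7 to 15.1 CPM in home cage against 6.06 to 8.28 CPM in fear (adjusted p = 0.0263), and the long noncoding RNA Gm13293 at 2.30 to 6.40 CPM in home cage against 0.767 to 1.88 CPM in fear (adjusted p = 0.0263). Krt15, a keratin, had 1 read in fear against 208 in home cage, a ratio of 61.3 (exact 95% interval 10.9 to 2432). In the other direction Runx1t1, a transcriptional corepressor, measured 18.98, 16.9, 24.2, 23.3 and 22.4 CPM in home cage 1 to 5 and 25.8, 43.4 and 31.2 CPM in fear 1 to 3 (log2 0.98 ± 0.17, adjusted p = 0.0186). All of these but Serpinb8 lost the call without home cage 2: the adjusted p was then 0.0670 for Srl, 0.0634 for Arg2, 0.221 for Maoa and 0.159 for Runx1t1.

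Genes of protein synthesis and respiration had values below 0 without calls. Of 79 cytosolic ribosomal protein genes, 78 were below 0 with a median of -0.40. With edgeR 0 passed, 12 lower ones were under 0.05 before adjustment, against 10.2% of all genes, and 1 was a call of DESeq2. They summed to 5610.0, 6669, 5073, 5675 and 6482 CPM in home cage 1 to 5 and 6191, 4194 and 4433 CPM in fear 1 to 3, so that fear 1 lay among the home cage libraries and fear 2 and 3 below them. Of 82 nuclear-encoded genes of oxidative phosphorylation, 76 were below 0 with a median of -0.29; 0 passed with edgeR or DESeq2 and 9 lower ones had an unadjusted p under 0.05, a share near that of all genes. The trend with exonic length given above was not tested for its part in these lists. Of 24 regulators of the CREB, MEF2 and SRF families, Srf was the 1 call. Of 34 synaptic vesicle genes 0 passed with edgeR or DESeq2, with 2 at an unadjusted p under 0.05. Of 23 sterol synthesis genes 0 passed with either tool, with 1 higher and 2 lower at an unadjusted p under 0.05.

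The chromatin and acetyl-CoA lists bear on the enzyme that the series is about. Of 34 histone acetyltransferases, deacetylases and acetyl-lysine readers, 1 was called, Brd3, a reader of the BET family, at 45.5 to 57.9 CPM in home cage against 57.99 to 69.3 CPM in fear (log2 0.44 ± 0.10, edgeR adjusted p = 0.0454). Of 30 genes of acetate and acetyl-CoA metabolism the 1 call was Aspa, described with the oligodendrocyte markers. Neither list held a call without home cage 2, fear 2 or fear 3. Acss2 itself measured 57.6, 64.7, 71.3, 66.9 and 65.6 CPM in home cage 1 to 5 and 57.05, 57.7 and 56.2 CPM in fear 1 to 3 (log2 -0.15 ± 0.11, adjusted p = 0.423). The groups met at the lower end of the home cage range, and the gene was not called.

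KO mice were killed under the same conditions, but their batches differ. KO home cage libraries were 3 of B2 and 2 of B3, and KO fear libraries 2 of B1 and 2 of B3, so that the WT and KO contrasts are compared across batches only through the batch terms. The KO libraries matched their labels, with Acss2 at 3.87 to 6.04 CPM in 9 KO libraries against 56.2 to 71.3 CPM in 8 WT libraries. In KO, fear against home cage gave 0 calls with edgeR and 6 with DESeq2 among the 14808 genes tested. Before adjustment 714 were under 0.05, about the number that this cut gives with no difference, against 3083 (20.8%) in WT. The difference between the WT and the KO response, tested as an interaction, passed for 71 genes (0.479%). Among the 24 rapid transcription factors 5 passed it, and the list's median response was 0.86 in WT and 0.29 in KO. Several cell marker lists differed too. The CA1 median was 1.18 in WT and -0.33 in KO, with 4 of 10 interaction calls. For ependymal and cilia markers it was -2.04 and 0.06 (4 of 25), and for CA2 and CA3 markers -0.82 and -0.015 (2 of 16). Mature oligodendrocyte markers had -1.20 and -0.25 (0 of 18), and dentate markers 0.20 and 0.07 (0 of 14). The part of cell and subfield content in the interaction was not tested.

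Egr2 had a log2 response of 4.68 ± 0.49 in WT and 1.93 ± 0.38 in KO and an interaction of 2.75 ± 0.53 (edgeR adjusted p = 0.0406). Egr1 responded by 0.14 ± 0.22 in KO, an interaction of 1.38 ± 0.27 (adjusted p = 0.0420). For Nr4a2 the KO response was -0.07 ± 0.19 and for Bhlhe40 it was -0.36 ± 0.18, with interactions of 1.39 ± 0.25 and 1.47 ± 0.23. Fos and Arc, whose KO responses were 1.28 ± 0.25 and 1.16 ± 0.23, had interactions of 1.26 ± 0.32 (adjusted p = 0.0661) and 0.83 ± 0.29 (adjusted p = 0.126), which did not pass. Serpinb8, at 0.01 ± 0.17 in KO, differed too (-1.61 ± 0.23, adjusted p = 0.0380). The number of interaction calls was 0 without home cage 2, without home cage 5, without fear 2 and without fear 3, and 1007 without fear 1; it was also 0 without the batch term, without KO home cage 4 or 5 and without any 1 of the 4 KO fear libraries. It was 1 without home cage 4, 3 without home cage 3 and 5 without KO home cage 2, and it rose to 664 without home cage 1, 894 without KO home cage 1 and 102 without KO home cage 3.

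**Figure D5:**
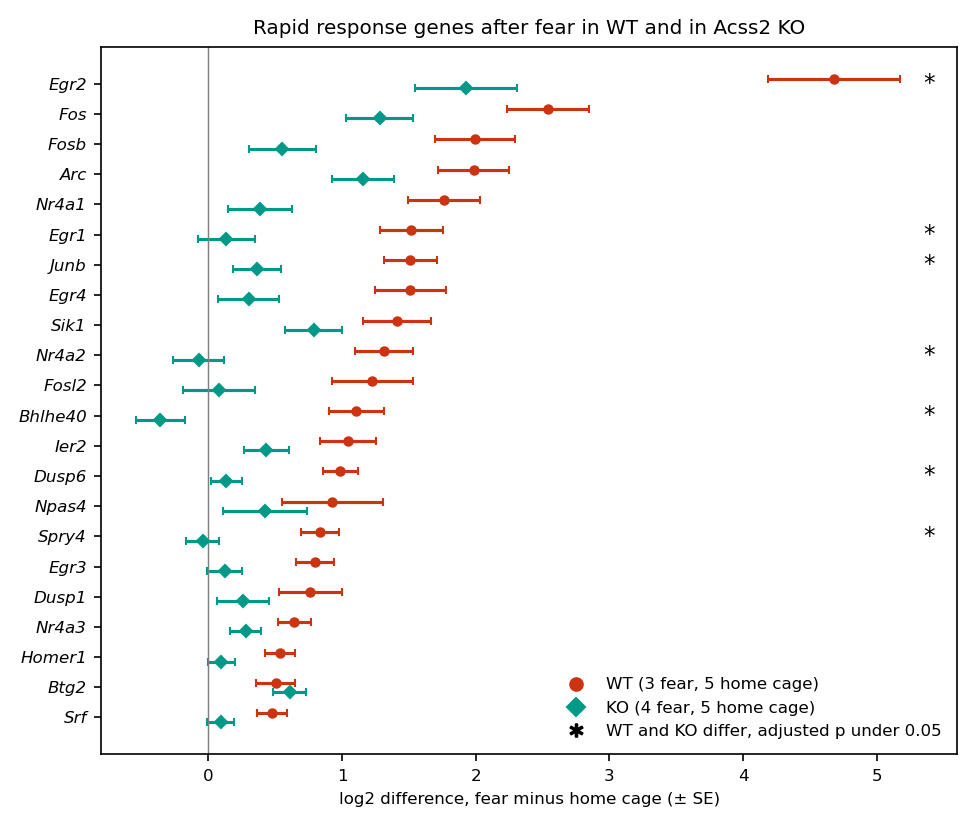
Log2 difference, fear minus home cage (horizontal axis, ± approximate SE), of 22 genes in WT (red circles) and KO (teal diamonds), from the fit to 17 libraries. A star marks an interaction with an adjusted p under 0.05, as for Egr2, where WT is at 4.68 and KO at 1.93.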

How the data were processed

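Whole-number read counts per gene symbol were used as the authors deposited them in one table of 24985 rows. Per the submitters' processing notes the build was mm10 and the tools included HTSeq 0.9.1, SAMtools 1.1, STAR, limma and DESeq2, with no roles given; the annotation and the strand setting are not given in the sources used here. Among its symbols 26 had turned into dates, of which 24 were among the genes tested. Genes were kept by filterByExpr (minimum count 10, total 15), scaled by TMM and fitted with edgeR 4.0.16 in R 4.3.3 on 17 dorsal libraries, with group and batch as terms and 11 residual degrees of freedom. P-values were adjusted by Benjamini-Hochberg over 14808 genes at a threshold of 0.05, and standard errors were taken as the log2 difference divided by the square root of F. DESeq2 1.42.0, other scalings and filters, other sets of libraries and each library left out were tried as alternatives, and the scripts were tested on simulated data.

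Libraries of 1 group were distinct beyond counting noise (chi-square per gene 5.86 to 21.7). Named genes were the 15 called genes of each direction with the smallest p, up to 4 called members of each of 39 lists per direction (2 members where none was called), genes called in every fit without 1 WT library or in batch B1 alone, Acss2, and rapid response genes. The rapid response lists, other lists, motifs and members were chosen with earlier results of these data known. Gene positions and lengths are those of GENCODE M21, in which 98.1% of symbols were found, in mm10; promoters are from RefSeq, GRCm38.p6. Depth limits genes with few fear reads, whose intervals cover counting error only. The 6 libraries of whole hippocampus were not used.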

Additional observations from a re-analysis of the deposited data

Results flagged for a closer look

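Of 69 named genes that were called, 4 had a home cage library far from the other 4 by Dixon's criterion, which chance gives in about 1 of 20 groups. These were Fosb in home cage 3 at 5.33 CPM, Maoa in home cage 2 at 62.7 CPM, Krt15 in home cage 1 at 1.01 CPM and Irf7 in home cage 2 at 4.64 CPM. For Fosb, Maoa and Irf7 that library was the highest of the home cage group.

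Of the 69 called named genes, 30 passed edgeR's interaction test of the WT against the KO response, beside 71 (0.479%) of all 14808 genes. These genes were chosen mostly by their WT p-values, and the interaction holds the same WT difference. The choice thus raises both their share and their values. The interaction had 0 calls without home cage 2, fear 2 or fear 3, or without any KO fear library. The values are log2, WT response minus KO response. Among rapid response genes the difference was 2.75 for Egr2, 1.38 for Egr1, 1.15 for Junb, 1.39 for Nr4a2, 1.47 for Bhlhe40, 0.86 for Dusp6 and 0.87 for Spry4. Among the CA1 markers it was 1.40 for Mpped1, 2.04 for Gpr161 and 3.01 for Ccn3. For the remaining genes above 0 it was 1.38 for Htr1a, 1.501 for Chrm4, 0.87 for Efna3, 0.96 for Runx1t1 and 0.97 for Klf16.

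Below 0 were the CA2 and CA3 markers Amigo2 (-1.49) and Ccdc3 (-1.93), and the cilia genes Dnah11 (-4.60), Spag17 (-5.74), Ak7 (-3.89) and Ccdc153 (-4.30). The smooth muscle genes Acta2 and Mylk were at -3.03 and -1.29, and Sostdc1 of the choroid plexus at -1.93. The others were Serpinb8 (-1.61), Srl (-0.78), Arg2 (-2.41), Maoa (-0.70), Scgn (-2.01) and Krt15 (-5.43). The fitted values of Spag17 and Krt15 rest on 1 fear read each and depend on the prior count.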

How the results depend on the processing

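The number of calls moved with most settings: over the called named genes, 1229 comparisons with an alternative stayed called, 563 kept the sign but were no longer called and 0 reversed. These genes were chosen by their calls in the full fit, and the alternatives reuse its libraries, so the lack of reversals is no sign of stability. Of the 69 genes, 6 stayed called without home cage 2, 10 without fear 3 and 13 in the 8 WT libraries alone. Calls for WT fear against WT home cage (in parentheses WT fear against WT home cage, higher, and WT fear against WT home cage, lower) were 938 (524 and 414) with DESeq2, 528 (255 and 273) with no filter, 712 (338 and 374) with no batch term, 19 (7 and 12) in the 8 WT libraries alone and 5 (2 and 3) in batch B1 alone. With the replicate block they were 15 (9 and 6); same-numbered libraries had correlations of -0.249, -0.0752 and 0.0984, so the numbers were not taken to pair them. Leaving out 1 library gave 6 to 829 calls, 5 to 543 higher and 1 to 439 lower. The interaction gave 130 calls with DESeq2 size factors, 907 with DESeq2, 400 with no filter, and 0 with the replicate block (2849 at an unadjusted p under 0.05) and with no batch term (1841), and 0 to 1007 with 1 library left out; the cause was not tested. Signs turned for genes that were not called: with no batch term the log2 difference of Sv2a was -0.037, that of Dusp5 -0.19 and the log2 difference of Spry1 -0.18, and Alas2 was at 0.34 in the 8 WT libraries and 0.36 in batch B1. With 1 library left out Maff ran from -0.51 to 0.80, Spry1 from -0.0896 to 0.23, Alas2 from -0.73 to 0.13 and the log2 difference of Jund from -0.115 to 0.0273. Fear 1 was the shallowest library, which limits genes of few reads.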

Other observations

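Called genes outside the lists, chosen after their values were seen, include regulators of transcription and signalling. Nab2, a corepressor of EGR factors, measured 34.1, 24.8, 38.7, 38.6 and 35.1 CPM in home cage 1 to 5 and 43.9, 47.2 and 51.3 CPM in fear 1 to 3 (log2 0.68 ± 0.14, edgeR adjusted p = 0.0306). Higher in all 3 fear libraries than in all 5 home cage libraries were also the nuclear receptor genes Rxra, for a retinoid X receptor (19.7 to 26.5 CPM in home cage against 27.1 to 44.8 CPM in fear), and Thrb, for a thyroid hormone receptor (26.9 to 35.2 CPM in home cage against 46.1 to 61.4 CPM in fear). Lifr, the receptor of leukaemia inhibitory factor, ran at 33.4 to 43.3 CPM in home cage against 48.2 to 70.6 CPM in fear (log2 0.77 ± 0.15), and Btg1, an antiproliferative factor, at 25.6 to 30.5 CPM in home cage against 40.9 to 44.2 CPM in fear (log2 0.50 ± 0.11).

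A pair of called genes rested on 1 or 2 fear libraries. Rxfp1, the relaxin receptor, measured 1.12, 0.878, 0.794, 0.918 and 0.919 CPM in home cage 1 to 5 and 0.753, 23.9 and 5.18 CPM in fear 1 to 3, and Grp, gastrin-releasing peptide, measured 1.80, 1.25, 0.907, 0.734 and 0.511 CPM in home cage 1 to 5 and 1.51, 27.4 and 5.56 CPM in fear 1 to 3. For both, fear 2 was far above the rest, fear 3 was raised, and fear 1 was not above the home cage range; the edgeR adjusted p was 0.0454 for Rxfp1 and 0.0467 for Grp.

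Among called lower genes, Pltp, phospholipid transfer protein, measured 32.7, 41.03, 70.2, 45.9 and 39.5 CPM in home cage 1 to 5 and 14.5, 17.98 and 11.5 CPM in fear 1 to 3 (log2 -1.52 ± 0.32, edgeR adjusted p = 0.0330), and Cyp26b1, which degrades retinoic acid, measured 31.4, 35.4, 51.6, 54.1 and 54.3 CPM in home cage 1 to 5 and 20.7, 8.66 and 11.6 CPM in fear 1 to 3 (log2 -1.28 ± 0.29). Neat1, the long noncoding RNA of paraspeckles, measured 109, 180.2, 74.7, 52.8 and 49.8 CPM in home cage 1 to 5 and 88.5, 48.6 and 57.2 CPM in fear 1 to 3, with overlapping groups (log2 -1.20 ± 0.26, adjusted p = 0.0344). For Neat1 all home cage libraries of batch B1 were above all fear libraries, and those of B2 overlapped with them. None of the genes in these paragraphs passed without home cage 2.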
